A study of Mus musculus with 7 samples.

Results

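The high mobility group (HMG) genes were followed in cultured myoblasts with and without Hmga2. The members are all probe sets that the platform's gene table pairs with Hmga1, Hmga2, Hmgb1, Hmgb2, Hmgb3, Hmgn1, Hmgn2, Hmgn3 or Hmgn5. The rule gave 21 of the 45101 probe sets on the array, and these covered 8 of the 9 genes, out of 19324 genes that the table names in all. The table paired no probe set with Hmga1, so that gene was not analysed here. Hmga2 had 4 probe sets, Hmgb1 5, Hmgb2 3, Hmgb3 1, Hmgn1 4, Hmgn2 1, Hmgn3 2 and Hmgn5 1. Of the 21, 15 name 1 gene. The other 6 name several: the 5 of Hmgb1 also name Gm21596 (1 of them also 4932431P20Rik), and the probe set of Hmgn2 also names Gm7931, Gm9525 and Gm6750. Signal on those 6 cannot be assigned to 1 locus.

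The samples were myoblasts, the mononuclear precursors that fuse into skeletal muscle fibres, from C57BL/6 mice that were either wild type (3 samples, all female) or HMGA2 -/- (4 samples, called Hmga2 KO). Of the Hmga2 KO samples, replicates 1 and 3 came from males, and replicates 2 and 4 from females. No sample was treated, the replicates are biological ones by their labels, and the sources used here do not state the age of the animals or which part of the gene was deleted. The question asked of these genes was whether paralogs change when Hmga2 is absent.

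HMG proteins are abundant non-histone proteins that bend, loosen or bridge chromatin without acting as classical sequence-specific activators, and they form 3 families that share a historical name rather than a fold. HMGA proteins carry AT-hooks, short peptides that sit in the minor groove of AT-rich DNA, and Hmga2 is the embryonic and precursor-cell member, repressed by let-7 microRNAs as tissues mature. HMGB proteins carry HMG boxes that bend DNA, and HMGN proteins bind the nucleosome itself and compete with linker histone H1.

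The promoter windows of these genes differ in a plain feature of sequence, the CCAAT box, an element bound by the factor NF-Y in many promoters of proliferating cells. RefSeq windows of GRCm38.p6, from 250 bases before to 50 bases after each start, were matched by symbol for 8 of the 9 genes (10 windows), all but Hmgn3. Of these 8 genes 6 held CCAAT on either strand (CCAAT or ATTGG). The 3 windows below are shown because Hmgb2 and Hmgb3 had the most similar values among the HMGB genes across samples (given below), and because Hmga2 is the targeted gene. Capitals mark CCAAT or ATTGG.
Hmgb2, chr8:57511593-57511892, plus strand: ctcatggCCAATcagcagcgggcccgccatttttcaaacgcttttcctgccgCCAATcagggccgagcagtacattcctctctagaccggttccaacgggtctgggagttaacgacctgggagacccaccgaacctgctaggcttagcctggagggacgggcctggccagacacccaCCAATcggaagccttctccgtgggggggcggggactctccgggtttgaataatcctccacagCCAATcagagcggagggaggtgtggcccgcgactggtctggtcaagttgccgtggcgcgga
Hmgb3, chrX:71555667-71555966, plus strand: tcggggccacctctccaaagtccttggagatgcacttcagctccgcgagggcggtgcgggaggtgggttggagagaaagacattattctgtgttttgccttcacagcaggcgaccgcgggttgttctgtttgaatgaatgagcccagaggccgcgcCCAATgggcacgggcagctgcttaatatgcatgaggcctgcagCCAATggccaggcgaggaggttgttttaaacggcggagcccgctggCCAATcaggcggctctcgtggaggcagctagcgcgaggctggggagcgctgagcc
Hmga2, chr10:120476420-120476719, minus strand: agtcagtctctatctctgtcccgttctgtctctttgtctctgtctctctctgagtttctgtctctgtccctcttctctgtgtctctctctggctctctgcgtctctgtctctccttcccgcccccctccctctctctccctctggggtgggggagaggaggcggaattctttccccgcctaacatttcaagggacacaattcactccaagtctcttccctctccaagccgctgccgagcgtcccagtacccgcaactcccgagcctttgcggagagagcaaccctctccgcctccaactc

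The Hmgb2 window held 4 matches and the Hmgb3 window 3, where 37.4% of the 32851 windows in the table held at least 1 and 3.37% at least 3. One of the 2 windows of Hmgb1 held 3 and the other 0, that of Hmgn1 2, that of Hmgn5 2 and that of Hmgn2 1. The windows of Hmga2 and Hmga1 held 0. A match is a description of these letters and not a binding site. CCAAT was chosen to be shown after 5 motifs had been searched, the others being TTTGAA, runs of at least 8 A or T bases, the GC box (GGGCGG) and 4 forms of the E2F element, each read on both strands. A run of at least 8 A or T bases was in the windows of Hmga1, Hmgn2 and Hmgn5 and in 41.9% of all windows, and none was in those of Hmga2, Hmgb1, Hmgb2, Hmgb3 and Hmgn1. No window of these genes held the E2F element, found in 2.26% of all windows. TTTGAA was only in those of Hmgb2 (2 matches) and Hmgb3 (1 match), and in 17.9% of all windows. The GC box was in windows of every matched gene except Hmgn5, and in 35.7% of all windows.

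The median intensity was 150 on each of the 7 arrays, and no array went below 33.2. For the Actb control, 3' signal over 5' signal, a sign of RNA integrity, came to 1.94 in the second wild type replicate and at most 1.74 elsewhere. Background was read in the 5 females from 9 probe sets of Y-linked genes and spanned 33.9 to 58.2. The myoblast markers Pax7 (log2 means 12.44 and 12.54 in wild type and Hmga2 KO) and Myod1 (13.91 and 13.85) were bright in both groups. These were the most even of 8 myoblast markers, of which 6 differed below 0, as did 67.6% of all genes. The median change of the 8 was -0.17, against -0.07 for all genes, and by limma 0 passed. Between Hmga2 KO females and wild type females the median of the 8 was -0.02, against -0.05 for all genes. Differences ran from -0.60 for Itga7 to 0.64 for Myf5. The number of arrays limits the precision of the values below. The limma p-values set each difference against the spread between these samples, moderated by that of all probe sets or genes.

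Hmga2 itself was lost. Its brightest probe set, 1450780_s_at, gave 11999, 9998 and 12800 in wild type replicates 1 to 3, and 96.6, 85.7, 96.7 and 104 in Hmga2 KO replicates 1 to 4. The groups were far apart, and each Hmga2 KO sample still lay above the background range. The change was -6.90 on the log2(intensity + 1) scale (95% confidence interval -7.16 to -6.64, SE 0.116, adjusted p = 8e-09, limma over all probe sets), a 119-fold difference. By exact permutation (two-sided) p was 0.0286, the lowest value that 35 splits allow.

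A pair of further probe sets had the same pattern at slightly lower brightness. On 1422851_at, wild type gave 10890, 8816 and 12111 and Hmga2 KO 61.1, 44.2, 56.7 and 51.5. On 1450781_at, wild type gave 9424, 6406 and 8813 and Hmga2 KO 61, 54.6, 58.3 and 45.4. In Hmga2 KO both were within or just above the background range, so the falls are bounds of at least 178-fold and at least 137-fold against its top. On all 3 bright probe sets wild type replicate 2 was the lowest wild type sample, and its Actb ratio was the highest of the 7; the part of RNA integrity in this was not tested. The dim probe set 1446196_at gave 59.5, 61.4 and 56 in wild type and 36.5, 46.8, 47.1 and 45.3 in Hmga2 KO. Its groups did not overlap, but it exceeded the background range only in wild type replicates 1 and 2, and it did not pass (change -0.42, adjusted p = 0.311, limma).

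**Figure D1:**
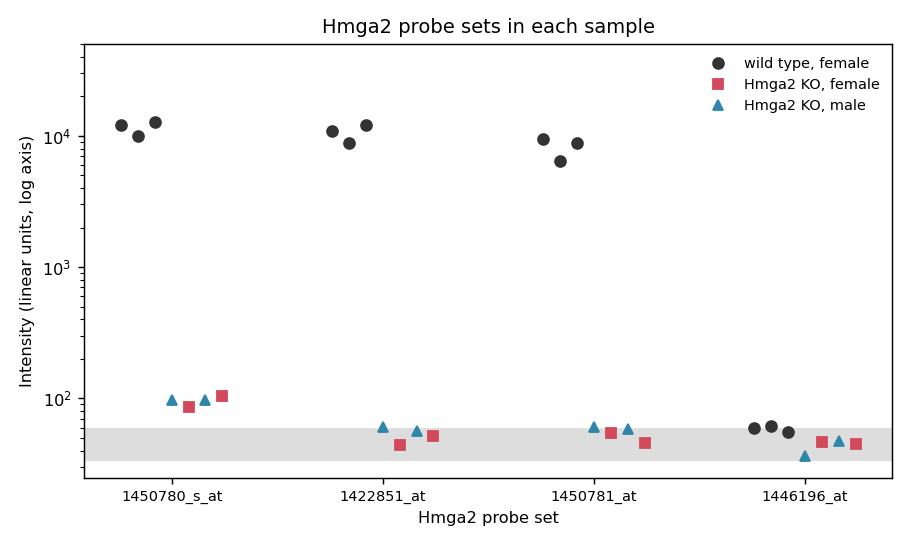
Intensity (linear units on a log axis) of the 4 Hmga2 probe sets in each of the 7 samples, with the background range of 33.9 to 58.2 shaded; circles are wild type females, squares Hmga2 KO females and triangles Hmga2 KO males. On 3 probe sets wild type lies between 6406 and 12800 and Hmga2 KO at 104 or below, and the fourth is near background in every sample.

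No other HMG gene measured here rose when Hmga2 was absent; Hmga1, the closest paralog, was not among them. Of the 17 probe sets of the other 7 genes, 0 passed (limma, adjusted p 0.362 to 0.892), and at an unadjusted p under 0.05 there were 2, both lower in Hmga2 KO. Over all 45037 probe sets tested, 0.0178% passed the adjusted threshold of 0.05, and 7.9% had an unadjusted p under 0.05 in the lower direction. All 17 differences were below 0 with the scaling as deposited, and 15 of 17 after quantile normalization; as deposited they ran from -0.34 to -0.04, with a median of -0.14. This direction is common on these arrays: 62.1% of all probe sets differed below 0, with a median of -0.05, and among the 10086 probe sets with a mean of at least 1000, to which 14 members belong, 68.4% did, with a median of -0.07. Against that median of bright probe sets 10 of the 17 were lower. After quantile normalization 52.5% of the bright probe sets differed below 0, with a median of -0.01, and 14 of the 17 were lower than that median. The upper ends of the 95% confidence intervals reached at most 0.25. In this fit of both sexes a rise above 1.19-fold thus lies outside the interval of each of these probe sets. Between Hmga2 KO females and wild type females (fit given below) the upper ends reached up to 0.41, on the dim Hmgn1 probe set 1422496_at. In wild type and Hmga2 KO the groups did not overlap for 2 of the 17, both lower, against 7.71% of all probe sets in that direction.

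**Figure D2:**
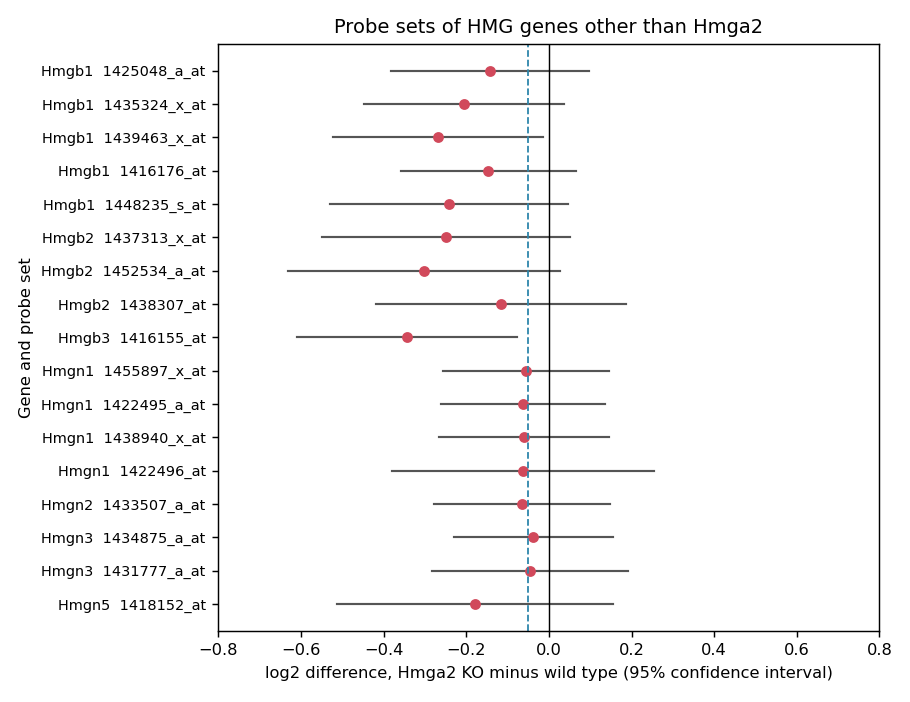
Difference in mean log2(intensity + 1), Hmga2 KO minus wild type, for the 17 probe sets of HMG genes other than Hmga2, with 95% confidence intervals from limma; the dashed line is the median of all probe sets, -0.05. With the scaling as deposited every point lies between -0.34 and -0.04 (15 of 17 lie below 0 after quantile normalization), and the intervals of Hmgb3 and of 1 Hmgb1 probe set end below 0.

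Within the HMGB family, Hmgb3, the X-linked member known from haematopoietic and other stem cells, had the largest difference. Its single probe set, 1416155_at, gave 3314, 2823 and 3682 in wild type and 2703, 2770, 2305 and 2503 in Hmga2 KO. All 4 Hmga2 KO samples were below all 3 wild type samples, although wild type replicate 2 and Hmga2 KO replicate 2 were close. The means were 3273 ± 431 (SD, n = 3) and 2570 ± 210 (SD, n = 4), 21.5% lower, a difference of -0.34 on the log2 scale (95% confidence interval -0.61 to -0.08, unadjusted p = 0.0166, adjusted p = 0.362, limma). Without wild type replicate 3 the difference was -0.255 (adjusted p = 0.739), and over the 18 alternatives it ranged from -0.45 to -0.26.

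Hmgb2, the member that rises with the cell cycle and marks dividing precursors, had 2 bright probe sets and 1 dimmer one. On the brightest, 1437313_x_at, wild type gave 4062, 3669 and 5362 and Hmga2 KO 3729, 3849, 3529 and 3397. The groups overlapped, because wild type replicate 2 lay within the Hmga2 KO range and replicate 3 stood above all other samples. The difference was -0.25 (95% confidence interval -0.55 to 0.05, adjusted p = 0.493, limma), and without wild type replicate 3 it shrank to -0.092. The second probe set, 1452534_a_at, gave 3512, 3338 and 4748 against 3046, 3663, 2976 and 2766, a difference of -0.30 (adjusted p = 0.46). The dimmer 1438307_at, at 482 to 619 in wild type and 410 to 563 in Hmga2 KO, ordered the samples differently and had a difference of -0.12 (adjusted p = 0.766).

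Hmgb1, the most widely expressed HMGB protein and, outside cells, an alarm signal, was read by 5 probe sets that also name Gm21596. On the brightest, 1425048_a_at, wild type gave 15157, 13752 and 13421 and Hmga2 KO 11220, 13461, 13993 and 12551. The groups overlapped (difference -0.14, 95% confidence interval -0.38 to 0.10, adjusted p = 0.625, limma). The other 4 differed by -0.27 to -0.15. On 1439463_x_at wild type gave 12258, 11448 and 11609 and Hmga2 KO 8875, 11315, 10326 and 8798, without overlap (difference -0.27, unadjusted p = 0.0412, adjusted p = 0.413). Hmga2 KO replicate 1 was the lowest of all samples on 4 of the 5 Hmgb1 probe sets and the second lowest, after replicate 4, on 1439463_x_at. Without it the difference of the brightest was -0.081, and without wild type replicate 1 it was -0.09.

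Among the HMGN genes, Hmgn1, Hmgn2 and Hmgn3 had the smallest differences of the 8 genes. Hmgn1, which loosens compact chromatin, gave 17832, 17199 and 19553 in wild type and 17847, 17406, 17164 and 17506 in Hmga2 KO on 1455897_x_at. The 4 Hmga2 KO samples fell within or just beneath the wild type range, with a difference of -0.06 (95% confidence interval -0.26 to 0.14, adjusted p = 0.837, limma). Leaving out wild type replicate 3 gave -0.003, and leaving out replicate 2 of that group gave -0.095. The 3 other Hmgn1 probe sets, 1422495_a_at, 1438940_x_at and the dim 1422496_at, also differed by -0.06 each, with adjusted p of 0.812, 0.825 and 0.889. Hmgn2, a close relative of Hmgn1, was read by 1433507_a_at, shared with 3 other gene names, at 14712, 13136 and 15178 in wild type and 13559, 13641, 13056 and 14530 in Hmga2 KO. These overlapped (difference -0.06, 95% confidence interval -0.28 to 0.15, adjusted p = 0.821), and the difference was -0.023 without wild type replicate 3, -0.127 without wild type replicate 2 and -0.042 without Hmga2 KO replicate 3.

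Hmgn3, first described as a partner of the thyroid hormone receptor, gave 6058, 5823 and 6348 in wild type and 6024, 5939, 5939 and 5765 in Hmga2 KO on 1434875_a_at. The difference of -0.04 (95% confidence interval -0.23 to 0.16, adjusted p = 0.889, limma) was the smallest of the 8 genes, and it turned to 0.021 under quantile normalization. It was -0.006 without wild type replicate 3, -0.068 without wild type replicate 2 and -0.025 without Hmga2 KO replicate 4. Its second probe set, 1431777_a_at, gave 2756 to 2992 in wild type and 2565 to 3064 in Hmga2 KO (difference -0.05, adjusted p = 0.892). Hmgn5, the X-linked member with a long acidic tail, gave 878, 623 and 907 in wild type and 729, 716, 602 and 761 in Hmga2 KO on 1418152_at. Wild type replicate 2 fell among the Hmga2 KO samples, and the difference was -0.18 (95% confidence interval -0.51 to 0.15, adjusted p = 0.664). It was -0.352 without wild type replicate 2, -0.104 without replicate 1 and -0.081 without replicate 3, and -0.107 without Hmga2 KO replicate 3.

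**Figure D3:**
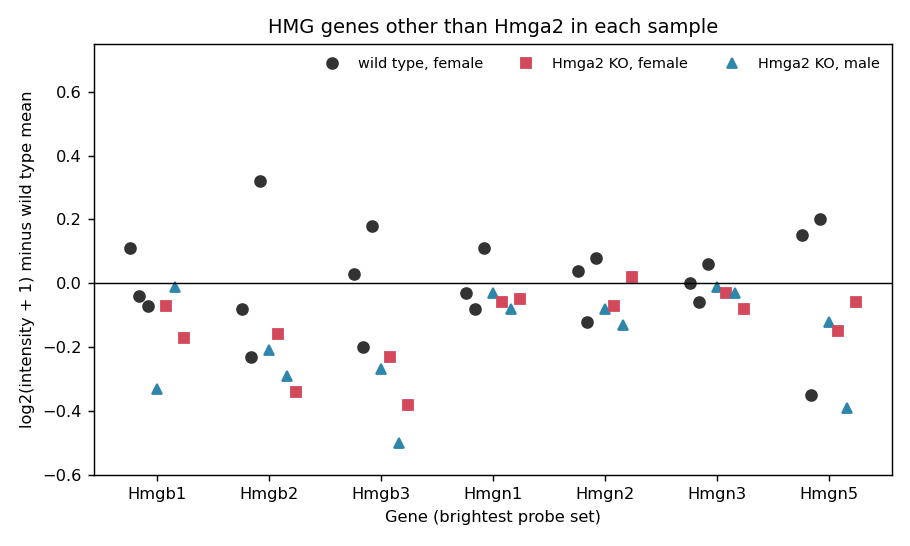
log2(intensity + 1) of the brightest probe set of each HMG gene other than Hmga2, minus the wild type mean of that probe set, in each of the 7 samples; circles are wild type females, squares Hmga2 KO females and triangles Hmga2 KO males. All values lie between -0.5 and 0.32, and only for Hmgb3 do the groups not overlap.

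Sex is uneven between the groups, so the Hmga2 KO samples were also compared by sex in a fit with 3 groups. Of the 21 probe sets 0 differed between Hmga2 KO males and females at an adjusted p under 0.05 and 0 at an unadjusted p under 0.05 (limma), where 0.0511% of all probe sets passed the adjusted test and 5.32% the unadjusted one. The differences of the 17, male minus female, ran from -0.26 to 0.03. For the X-linked genes they were -0.08 for Hmgb3 and -0.16 for Hmgn5, the latter with a 95% confidence interval of -0.6 to 0.29. Between Hmga2 KO females and wild type females, 15 of the 17 differences were below 0, from -0.31 to 0.03, and by limma 0 passed after adjustment and 0 without it, against 0.0133% of all probe sets past the adjusted test and 6.51% past the unadjusted one; 58.5% of all probe sets differed below 0 there. Hmgb3 remained the largest at -0.31 (unadjusted p = 0.0704). Hmga2 differed by -6.91 in females (adjusted p = 1.62e-07).

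Several of these genes varied together within the groups. After each group's mean was subtracted, the brightest probe sets of Hmgb2 and Hmgn1 correlated at 0.93 over the 7 samples, as did those of Hmgb2 and Hmgn3. Those of Hmgn2 and Hmgn5 correlated at 0.95, of Hmgn1 and Hmgn3 at 0.87, of Hmgb3 and Hmgn5 at 0.86, and of Hmgb2 and Hmgb3 at 0.85. Hmgb1 correlated below 0 with each of the other genes, from -0.44 with Hmgn1 to -0.12 with Hmgn2. These values are descriptions over 7 arrays that share their scaling. They come from the brightest probe set of each gene alone. The 3 bright probe sets of Hmgn1 and the 5 of Hmgb1 read overlapping transcripts, and between the probe sets of Hmgb1 the correlation was 0.57 to 0.98. With dim probe sets included, it was -0.37 to 0.92 within Hmgb2, -0.15 to 1 within Hmgn1 and -0.65 to 0.80 within Hmga2. Between the 2 probe sets of Hmgn3 it was 0.37.

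Among 10910 genes in the upper 60% of brightness, the genes whose group-centred values were most like those of Hmgb2 were Ube2k (r = 0.996 over 7 samples), Cks2, a small subunit of mitotic kinases (0.995), and Ndc80, of the kinetochore (0.993). For Hmgb3 they were Poldip2 (0.995), Fitm2 (0.992) and Ubr7 (0.992). For Hmgn1 they were Lgi4 (0.991), Kbtbd4 (0.99) and Racgap1 (0.989), and for Hmgn3 Kif18a (0.994), Faap24 (0.993) and Tubb4b (0.992). Those of Hmgb1 were Prkaa1 (0.998), Arl15 (0.99) and Stam2 (0.989). Hmgn2 had Megf9 (0.994), Hoxc4 (0.994) and Arf6 (0.991), and Hmgn5 had Dnajc3 (0.992), 4930431P19Rik (0.991) and Arcn1 (0.991). Hmga2 had Ccng1 (0.983), Dynap (0.977) and Lst1 (0.976). All of these are the highest of many values over few samples. In the 4 Hmga2 KO samples the brightest Hmga2 probe set gave only 85.7 to 104, so 4 of its 7 points are residual signal.

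Markers of cell division were compared with the HMG values sample by sample. The mean of 19 proliferation genes, relative to their mean over the 7 samples, was 0.13, -0.06 and 0.32 in wild type replicates 1 to 3 and 0.05, -0.09, -0.22 and -0.13 in Hmga2 KO replicates 1 to 4. Wild type replicate 3, highest for this list, was also highest on the brightest probe set of Hmgb2, Hmgb3, Hmgn1, Hmgn2, Hmgn3 and Hmgn5. It was the lowest wild type sample on the dimmer Hmgb2 probe set 1438307_at and on the dim Hmgn1 probe set 1422496_at, and on the second Hmgn3 probe set it lay below Hmga2 KO replicates 2 and 3. The summed intensity of the list was 83684 to 105008 in wild type and 78588 to 90271 in Hmga2 KO. By limma 0 of the 19 passed; at an unadjusted p under 0.05, 6 were lower and 0 higher, against 10.3% of all genes in that direction. The median change of the list was -0.23, and that of all genes -0.07. The part of cell division in the HMG differences was not tested.

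**Figure D4:**
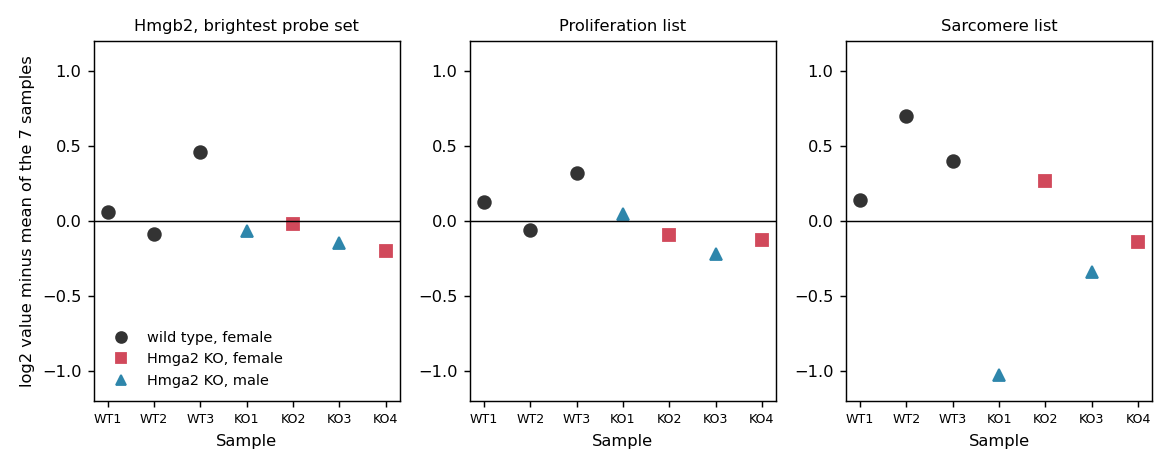
log2 values minus the mean of the 7 samples, for the brightest Hmgb2 probe set, the mean of 19 proliferation genes and the mean of 22 sarcomere genes, in wild type (WT) and Hmga2 KO (KO) replicates; circles are wild type females, squares Hmga2 KO females and triangles Hmga2 KO males. Wild type replicate 3 is highest for Hmgb2 and for the proliferation list, at 0.32, and Hmga2 KO replicate 1 is lowest for the sarcomere list, at -1.03.

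Markers of other cell states and cell types were summed in each sample. The sums of the sarcomere and leukocyte lists overlapped between the groups and those of the fibroblast and endothelial lists did not, and the part of these cells in the HMG values was not tested. The mean of 22 sarcomere and terminal differentiation genes was 0.14, 0.70 and 0.40 in wild type and -1.03, 0.27, -0.34 and -0.14 in Hmga2 KO, where replicate 1, lowest here, was also low for Hmgb1. By limma 0 of the 22 passed, and 13 were lower and 0 higher at an unadjusted p under 0.05, against 10.3% of all genes lower and 2.99% higher. The median change of the 22 was -0.63, against -0.07 for all genes. Between Hmga2 KO females and wild type females it was -0.3, against -0.05. The summed intensity of the list was 108262 to 151379 in wild type and 53305 to 122289 in Hmga2 KO. Summed intensities of 14 fibroblast and fibro-adipogenic progenitor markers were 14048 to 16845 in wild type and 17681 to 20222 in Hmga2 KO, with only Fap at background in all samples; 0 of the 14 passed, and 4 were higher and 0 lower at an unadjusted p under 0.05, against the same 2.99% and 10.3%. Those of 10 leukocyte markers were 855 to 986 and 889 to 947, with none at background throughout. Those of 8 endothelial markers were 641 to 661 and 581 to 614, with only Tek at background throughout. A marker counted as at background only if no sample exceeded 58.2, and both of these lists were dim. Group log2 means of the 4 genes with the smallest p were 5.71 to 7.06 for leukocytes and 5.70 to 6.69 for endothelium. In such bulk samples fewer cells of a type and less RNA per cell cannot be told apart.

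Genes that share structure, partners or regulation with the HMG proteins were taken from 5 lists, and 0 of their measured genes passed by limma, where 0.0275% of 18193 genes did. Of 18 measured genes of other HMG-box proteins, 2 were lower and 1 higher at an unadjusted p under 0.05, where 10.3% of all genes were lower and 2.99% higher. Wdhd1, a replication factor with an HMG box, averaged 10.70 (log2) in wild type against 10.27 in Hmga2 KO (adjusted p = 0.294), and Tox, a lymphocyte regulator, 6.99 and 7.40 (adjusted p = 0.297). The list's median change was -0.07, as for all genes.

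Linker histones, which HMGN and HMGA proteins displace, were measured for 5 of 9 listed genes. Of the 5, 4 differed below 0, as did 67.6% of all genes, and the median change was -0.04, against -0.07. By limma 0 of the 5 passed, with or without adjustment. Over all genes 0.0275% passed with adjustment, and 10.3% were lower and 2.99% higher at an unadjusted p under 0.05. At these shares a count of 0 among 5 genes says little. H1f2 averaged 12.49 in wild type against 12.45 on the log2 scale (adjusted p = 0.93), and H1f10 8.40 and 8.19 (adjusted p = 0.419).

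In the let-7 pathway and among other let-7 targets, which share the microRNA that represses Hmga2, 3 of 18 genes were lower and 0 higher at an unadjusted p under 0.05, against 10.3% and 2.99% of all genes. The median change was -0.05, and that of all genes -0.07. Plagl2, a zinc finger factor, averaged 8.90 in wild type against 8.35 on the log2 scale (adjusted p = 0.333), and Dis3l2, the exonuclease that degrades tailed pre-let-7, 8.51 and 8.17 (adjusted p = 0.375).

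Among 11 measured partners and receptors of HMGB proteins, 4 were lower at an unadjusted p under 0.05 and 0 higher, with a median change of -0.12. Of all genes 10.3% were lower and 2.99% higher by that rule, and their median change was -0.07. Anp32a, of the SET complex that also holds Hmgb2, averaged 10.78 in wild type against 10.45 on the log2 scale (adjusted p = 0.305), and Nme1, a nuclease of the same complex, 12.29 and 12.00 (adjusted p = 0.305). Trem1 and Tlr2, receptors of myeloid cells, made up the other 2, both dim in all samples, with 6.13 and 5.83 for Trem1 and 6.47 and 6.26 for Tlr2.

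Of 26 genes for chromatin architecture and histone chaperones, 22 differed below 0, as did 67.6% of all genes. At an unadjusted p under 0.05, 6 were lower and 0 higher, against 10.3% and 2.99% of all genes, and the median change was -0.13, against -0.07. Chaf1b, of the chaperone that loads histones behind replication forks, averaged 8.43 in wild type against 7.94 on the log2 scale (adjusted p = 0.289). Ncapd2, of condensin, had 10.53 and 10.27 (adjusted p = 0.32), and Cbx3, a heterochromatin protein, 10.16 and 9.84 (adjusted p = 0.336).

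The pseudogene Hmga2-ps1, which is no member, stayed above background in every sample on its 1 probe set, at 989, 926 and 1079 in wild type and 1175, 531, 676 and 1010 in Hmga2 KO (difference -0.30, adjusted p = 0.653, limma). Hmga2 KO replicates 2 and 3 were lower than all other samples and replicate 1 was the highest of the 7.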

How the data were processed

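Gene expression was measured on 7 Affymetrix arrays of biotin-labelled cRNA, per the labels' protocols. Each deposited value is a linear probe set intensity, and the authors set the median of each array to 150, as the values show. Summarization, background correction and software were not given in the sources used here. Values were taken as log2(intensity + 1) with no further normalization, and 64 control probe sets were left out. Genes were named through the platform table; 34945 probe sets named 1 gene, 932 several and 9160 none in that table. The test was limma (version 3.58.1, lmFit then eBayes, R version 4.3.3). P-values were adjusted by Benjamini-Hochberg over 45037 probe sets, or over 18193 genes for gene lists, each gene as its brightest probe set. Confidence intervals are those of limma and are not adjusted. Named genes were all members, up to 4 genes with the smallest p of each pathway list, and the 3 genes most like a member; not all are given. Members and lists were chosen with earlier results of these data known. On simulated data of the same 45037 probe sets, 28% of 1.5-fold, 68% of 2-fold and 96.7% of 4-fold changes were recovered. Changes were placed only in probe sets brighter than the dimmest 40%, so recovery among dim probe sets was not examined. The simulation also held 100-fold changes, of which 100% were recovered, and strong changes make the Benjamini-Hochberg cutoff easier for weaker ones to pass. In the measured data only 8 probe sets passed. The recovered shares therefore hold for the simulated mix, and recovery of small changes in the measured data may be lower. Alternatives covered sex, replicates, scaling, filters, priors and probe set choice. The main fit did not pair samples by replicate number, and whether these numbers mark a shared preparation was not tested. Deviations of same-numbered samples of the 2 groups correlated at 0.30, 0.35 and -0.23. Those of differently numbered samples correlated at -0.40 to 0.17.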

Additional observations from a re-analysis of the deposited data

Results flagged for a closer look

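In the 4 Hmga2 KO samples, 45 values of members and of named list genes were examined for a sample far from the others, and 5 were found, where about 1 in 20 such groups would show one with no cause. The gap to the nearest sample, as a share of the range of log2 values, was 0.848 for the dim Hmga2 probe set 1446196_at, with Hmga2 KO replicate 1 at 36.5 and the others at 45.3 to 47.1. It was 0.872 for the dim Hmgn1 probe set 1422496_at, with replicate 3 at 98.9 and the others at 128 to 133. Among list genes it was 0.911 for H1f10, with replicate 1 at 314 and the others at 283 to 285, and 0.838 for Dis3l2, with replicate 2 at 373 and the others at 254 to 271. For Tlr2 it was 0.873, with replicate 3 at 70.5 and the others at 76.7 to 77.7.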

How the results depend on the processing

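In all alternatives run, 0 of the 17 probe sets of HMG genes other than Hmga2 passed, and 15 to 17 of them lay below 0, with 15 for sex as a covariate, females alone and quantile normalization. All wild type samples are female, so sex as a covariate and females alone give the same differences and are not separate checks of them. Each of the 8 genes kept its direction and its side of the threshold over 18 alternatives, with the exception of Hmgn3, whose change was 0.021 under quantile normalization. Under that scaling 52.7% rather than 62.1% of all probe sets lay below 0, and the median of the 17 was -0.08. The range was -7.61 to -5.53 for Hmga2, -0.24 to -0.08 for Hmgb1 and -0.37 to -0.09 for Hmgb2. The Hmga2 level was -7.003 to -6.825 when 1 replicate was left out; fewer splits then allow an exact p of no less than 0.0667 to 0.1. Over all probe sets 8 passed, and 84 with the replicate number as a block, 13 with a trended and robust prior, 15 at an adjusted p of 0.1 and 4 (without wild type replicate 3) to 34 (without Hmga2 KO replicate 2) with 1 replicate left out. Over genes 5 passed, and 99 with that replicate block, 9 at an adjusted p of 0.1 and 2 to 17 with the same 2 replicates left out; the cause was not tested. Under the block Hmgb3 differed by -0.332 (adjusted p = 0.507). Equal medians left the values nearly as they were. No pathway list gene passed in any alternative.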
